A study of Mus musculus with 12 samples.

Results

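Wide peaks of acetylated histone H3 lysine 27 (H3K27ac) in mouse induced pluripotent stem cells (iPSCs) are described here. A peak was counted as wide when its end minus its start was 2000 bp or more, and 3069 of the 55466 iPSC H3K27ac peaks (5.53%) met that rule. The other 52397 peaks are called narrower. The width chose the members, so members were chosen by a measured value, which is given as a description without a test. The study mapped H3K27ac and the zinc-finger factor KLF4 by chromatin immunoprecipitation sequencing (ChIP-seq), in which DNA bound by an antibody target is sequenced, to relate KLF4 binding to enhancers of pluripotent cells.

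The iPSCs, which are somatic cells reprogrammed to pluripotency, gave 2 replicates for KLF4 and 2 for H3K27ac, and the somatic cell of origin is not named in the labels. V6.5 embryonic stem cells (ESCs) gave 2 H3K27ac replicates at 0 h and 2 at 24 h. Both ESC groups were clonal lines that carried a Cas9 gene inducible by doxycycline, together with guides. The 0 h cells were not induced and the 24 h cells received doxycycline for 24 h. The labels call these samples TKO and name the targets either as Klf4 alone or as Klf2, Klf4 and Klf5 together, so the targeted genes are not settled. All samples are labelled as grown in 2i, a pair of kinase inhibitors that keeps mouse pluripotent cells naive, and the growth protocol, written for V6.5 cells, names irradiated feeder cells. Each ChIP group was deposited as 1 list, so nothing could be tested across replicates, read depth is unknown, and the inputs were not analysed here. The intervals given are 95% exact binomial or Poisson intervals for counting error only, or order-statistic intervals for medians. They describe these lists and not the spread between cultures.

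H3K27ac marks nucleosomes at active enhancers and promoters. Broad stretches of it, including the clustered enhancers called super-enhancers, are known to lie at genes that define a cell type. In mouse pluripotent cells KLF4 binds many of these elements together with OCT4, SOX2, NANOG and ESRRB, and KLF2, KLF4 and KLF5 share much of their function there.

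The widest peak outside any protein-coding gene lay on chromosome 7, 3198461 to 3215977 (mm10), and was 17517 bp wide. It held the centres of 6 KLF4 peaks, more than any other wide peak. Another wide peak, of 6100 bp (3216038 to 3222137), began 60 bp beyond it and covered all 8 hairpins of the miR-290 cluster that the RefSeq table lists. This cluster encodes microRNAs characteristic of mouse ESCs. Across the genome 26 of 1005 listed microRNA hairpins (2.59%) lay in a wide peak, 54 lay in a narrower peak and 925 in none. The cluster holds 8 of those 26 hairpins, so the 6 mature 3p strands that the table places in this peak on the plus strand are shown. The strand miR-291a-3p is among them without a hairpin of its own among the 8. The seed (bases 2 to 8) is in capitals, and the sequences are those of RefSeq for GRCm38.p6, given 5′ to 3′.
miR-291a-3p: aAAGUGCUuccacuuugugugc
miR-294-3p: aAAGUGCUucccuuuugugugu
miR-295-3p: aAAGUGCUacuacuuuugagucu
miR-291b-3p: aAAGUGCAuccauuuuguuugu
miR-290a-3p: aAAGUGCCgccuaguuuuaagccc
miR-293-3p: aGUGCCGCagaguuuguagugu
The strands miR-291a-3p, miR-294-3p and miR-295-3p share the seed AAGUGCU. The seed of miR-291b-3p is AAGUGCA, that of miR-290a-3p is AAGUGCC, and that of miR-293-3p is GUGCCGC. The ESC bins that held both wide peaks had an H3K27ac value of 18.1 at 0 h and 14.9 at 24 h.

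Promoters in wide peaks are shown for 5 pluripotency genes whose start lay in a wide peak, with the centre of a KLF4 peak and at least 1 of 3 motifs in the window from 250 bases before to 50 after the start. The motifs were GGGTGTGG (bound by KLF4), GGGCGGGG (the GC box, bound by SP and KLF factors) and ATGCAAAT (the octamer, bound by OCT4), on both strands, and their letters are in capitals. The strand shown is that of the gene, from RefSeq for GRCm38.p6. Tdgf1, which encodes a NODAL co-receptor, has its window on chromosome 9, 110946109 to 110946408 (minus strand), in a peak of 11113 bp. The window of Klf2 is on chromosome 8, 72318812 to 72319111 (plus strand), in a peak of 9155 bp. Zfp42, the naive marker also known as Rex1, has its window on chromosome 8, 43306960 to 43307259 (minus strand), in a peak of 5407 bp. For Klf4 it is on chromosome 4, 55532426 to 55532725 (minus strand), in a peak of 3599 bp. Pou5f1, which encodes OCT4, has its window on chromosome 17, 35505782 to 35506081 (plus strand), in a peak of 2621 bp.
Tdgf1 promoter: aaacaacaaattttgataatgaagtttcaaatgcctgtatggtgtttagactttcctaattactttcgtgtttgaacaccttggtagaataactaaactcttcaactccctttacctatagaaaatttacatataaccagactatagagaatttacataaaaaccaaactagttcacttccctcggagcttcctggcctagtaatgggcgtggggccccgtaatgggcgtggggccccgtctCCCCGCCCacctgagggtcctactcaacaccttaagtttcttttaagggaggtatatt
Klf2 promoter: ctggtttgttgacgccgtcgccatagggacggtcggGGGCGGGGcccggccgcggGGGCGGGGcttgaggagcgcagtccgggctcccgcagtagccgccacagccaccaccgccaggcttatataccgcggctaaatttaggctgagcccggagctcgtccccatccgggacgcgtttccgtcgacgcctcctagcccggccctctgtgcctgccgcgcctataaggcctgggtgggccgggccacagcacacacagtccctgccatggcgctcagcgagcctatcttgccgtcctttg
Zfp42 promoter: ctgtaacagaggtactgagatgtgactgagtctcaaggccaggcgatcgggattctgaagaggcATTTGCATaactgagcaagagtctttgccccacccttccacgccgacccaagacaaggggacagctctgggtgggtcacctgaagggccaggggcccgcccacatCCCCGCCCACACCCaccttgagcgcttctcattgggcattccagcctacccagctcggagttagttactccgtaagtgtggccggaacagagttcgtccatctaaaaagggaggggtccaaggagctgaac
Klf4 promoter: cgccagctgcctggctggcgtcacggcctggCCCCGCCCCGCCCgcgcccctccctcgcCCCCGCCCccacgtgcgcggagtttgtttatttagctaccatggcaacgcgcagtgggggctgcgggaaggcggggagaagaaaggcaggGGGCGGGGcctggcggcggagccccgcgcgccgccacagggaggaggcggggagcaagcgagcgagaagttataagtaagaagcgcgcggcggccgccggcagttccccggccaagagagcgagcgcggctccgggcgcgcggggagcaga
Pou5f1 promoter: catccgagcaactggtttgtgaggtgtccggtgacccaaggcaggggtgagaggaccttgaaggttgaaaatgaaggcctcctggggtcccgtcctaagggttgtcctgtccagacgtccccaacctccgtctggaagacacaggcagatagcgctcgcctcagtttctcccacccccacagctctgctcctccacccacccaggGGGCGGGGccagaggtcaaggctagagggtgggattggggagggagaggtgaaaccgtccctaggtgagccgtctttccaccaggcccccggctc
Zfp42 held all 3 motifs, and 2 of them overlapped by 2 bases where CCCCGCCC at position 170 of the window runs into CCACACCC at position 176. The other promoters held only the GC box among the 3 motifs, at 1 position in Tdgf1 and Pou5f1, at 2 in Klf2 and at 4 in Klf4. Only exact matches were searched, so other forms of a motif were not marked. A match is a description of letters and no measured site.

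Of the 32851 promoter windows in the RefSeq table, 1132 (941 genes) had their start in a wide peak, 5111 in a narrower peak and 26608 in none. Windows in wide and in narrower peaks had much the same composition. Their median GC content was 62.0% and 61.3%, against 50.7% without a peak, and the median CpG observed over expected was 0.807, 0.817 and 0.300. The GC box was found in 31.3% (28.6 to 34.1) of windows in wide peaks, 30.9% (29.6 to 32.2) in narrower peaks and 17.6% of all windows. GGGTGTGG was found in 3.98% (2.91 to 5.28) of windows in wide peaks and 3.56% of all windows, and the octamer in 1.77% (1.08 to 2.72) and 1.74%. The intervals of wide and narrower peaks overlap for each of the 3 motifs. The centre of a KLF4 peak lay in 29.2% of windows in wide peaks, 22.5% in narrower peaks and 7.19% without a peak.

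Wide peaks covered 10.2 Mb, or 27.4% of all acetylated bases. Their median width was 2768 bp (quartiles 2302 and 3683), against 380 bp for narrower peaks, and 1278 were 3000 bp or wider, 329 were 5000 bp or wider and 32 were 10000 bp or wider. The rule cuts a continuous range. Just inside it lay peaks of 2000 bp nearest Pipox and Zfp991 and of 2001 bp nearest Gpr37l1, and just outside it peaks of 1999 bp nearest Grid1, Brix1 and Tfap2c. None of these 6 peaks held the centre of a KLF4 peak.

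The centre of a wide peak lay 2 kb or less from an end of some protein-coding gene in 879 cases (28.6%, 27.05 to 30.3), against 26.7% (26.3 to 27.04) of narrower peaks. Gene bodies away from their ends held 36.8% of wide and 41.2% of narrower peaks, and 34.6% and 32.2% lay outside genes. The first difference was small and not stable: wide peaks had the higher share on 11 of 20 chromosomes (Y left out), and the order turned with peaks of 3000 bp or more (23.6% against 26.8%) and with a distance of 1 kb (20.3% against 20.6%). The share rose with width to 35.9% at 1500 to 1999 bp and then fell, to 32.3% at 2000 to 2999 bp, 25.2% at 3000 to 4999 bp and 18.8% (14.8 to 23.5) at 5000 bp or more. A start listed in the promoter table lay inside 25.4% of wide and 7.82% of narrower peaks, which their length alone makes unequal. Where a wide peak held exactly 1 start (465 peaks), it reached a median of 1232 bp upstream and 1475 bp downstream, and 58.5% (53.9 to 63.0) reached further downstream. For the 3074 such narrower peaks the medians were 166 and 558 bp and the share was 74.7% (73.1 to 76.2).

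**Figure D1:**
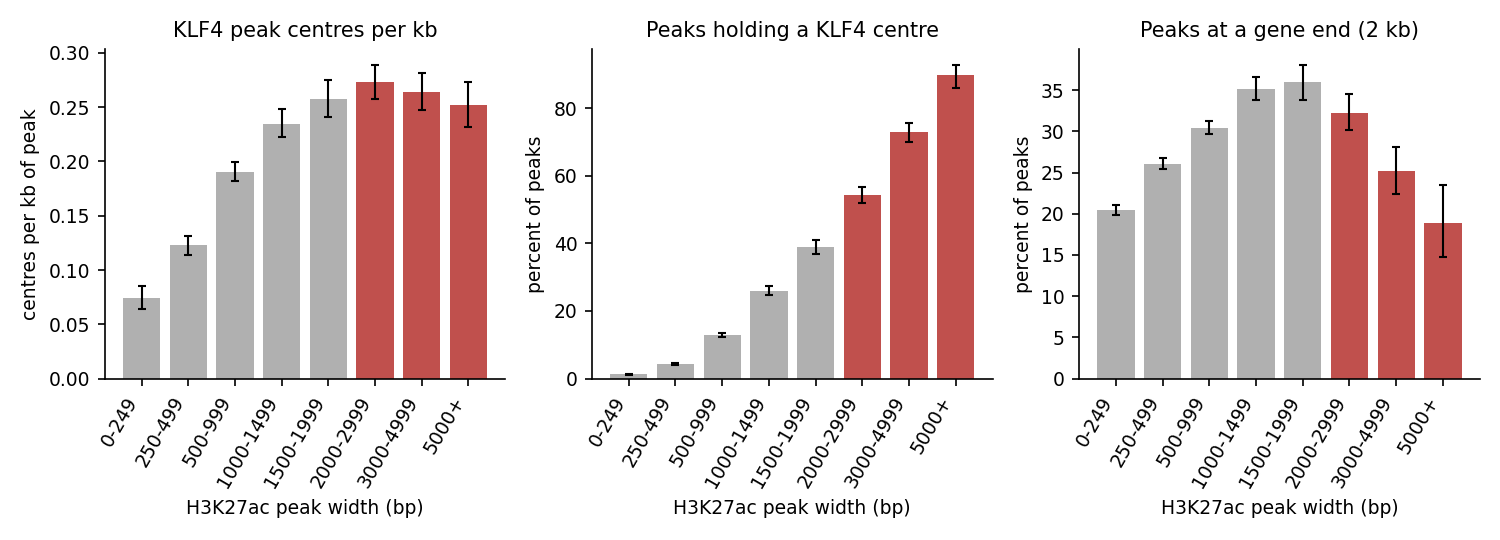
iPSC H3K27ac peaks by width in bp (x axes), showing KLF4 peak centres per kb of peak, the percent of peaks with at least 1 centre and the percent with their centre within 2 kb of a gene end. Bars are values over all peaks of a class, error bars are 95% counting intervals, and red bars are wide peaks. Centres per kb reach 0.258 at 1500 to 1999 bp and lie at 0.252 to 0.273 in the 3 wide classes. The share at gene ends falls from 32.3% to 18.8% across those 3 classes.

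KLF4 was found in most wide peaks. The centre of at least 1 KLF4 peak lay in 1959 of them (63.8%, 62.1 to 65.5), against 8.81% (8.57 to 9.06) of narrower peaks. Exactly 1 centre lay in 1401 wide peaks, 2 in 421, 3 in 99, 4 in 31 and 5 or more in 7, while 1110 held none. Wide peaks thus held 2700 centres, which are 12.5% of all 21563 KLF4 peaks and 35.5% of the 7603 with their centre in any H3K27ac peak. KLF4 peaks were themselves wider there, with a median of 319 bp, than in narrower peaks (289 bp) or outside H3K27ac peaks (246 bp).

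A longer peak can hold more centres by its length, so KLF4 was also counted per kb. Wide peaks held 0.265 centres per kb (0.255 to 0.275) and narrower peaks 0.181 (0.176 to 0.186), and wide peaks had the higher density on 20 of 20 chromosomes, with a mean of 0.263 ± 0.022 (SD over chromosomes). The difference lay away from gene ends, where the densities were 0.246 (0.235 to 0.257) and 0.126 (0.121 to 0.131), with wide peaks higher on 20 of 20 chromosomes. At gene ends they were 0.318 (0.297 to 0.340) and 0.309 (0.297 to 0.321), with overlapping intervals and wide peaks higher on 13 of 20. Within the wide peaks density did not climb further, at 0.273 per kb for 2000 to 2999 bp, 0.264 for 3000 to 4999 bp and 0.252 for 5000 bp or more. Narrower peaks closest in width came near these values, at 0.258 (0.241 to 0.275) for 1500 to 1999 bp and 0.235 (0.222 to 0.248) for 1000 to 1499 bp. The lowest densities were 0.0742 under 250 bp and 0.123 at 250 to 499 bp. The density was thus not particular to peaks that met the width rule. KLF4 peaks covered 9.57% of the bases of wide peaks and 6.35% of those of narrower peaks.

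The order of these densities depended on the counting rule. With any overlap of 1 bp in place of the centre, wide peaks held 0.288 and narrower peaks 0.338 KLF4 peaks per kb, and with H3K27ac peaks 1 kb or less apart merged first the values were 0.213 and 0.244. The overlap rule adds KLF4 peaks with their centre beyond an edge, which weighs more per kb on short peaks. It can also count 1 KLF4 peak in more than 1 H3K27ac peak. Merging takes in the gaps and changes the groups, with 6017 wide regions in place of 3069. The part of each in the turned order was not tested. The gaps of 1 kb or less between neighbouring narrower peaks held 0.379 centres per kb (0.362 to 0.396; 1951 centres in 22823 gaps), and the gaps beside a wide peak held 0.250 (0.214 to 0.291; 169 centres in 3322 gaps). KLF4 centres were therefore denser between narrower peaks than inside them, while beside wide peaks the interval of the gaps included the density inside.

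Inside a wide peak the KLF4 centres were concentrated in the middle. With the distance from centre to edge cut into 5 equal parts, the innermost held 0.502 centres per kb (37.9% of them), the next 0.367, then 0.239 and 0.115, and the outermost 0.101. The density in the innermost part was similar at gene ends (0.528, 0.469 to 0.593) and away from them (0.493, 0.458 to 0.530), and the other 4 parts were denser at gene ends (0.439, 0.310, 0.177 and 0.137 against 0.341, 0.214, 0.0922 and 0.0882). In the first kb outside the edges, other H3K27ac peaks included, wide peaks had 0.0710 centres per kb and narrower peaks 0.114. At 5 to 10 kb the order was the other way, with 0.0435 and 0.0320.

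**Figure D2:**
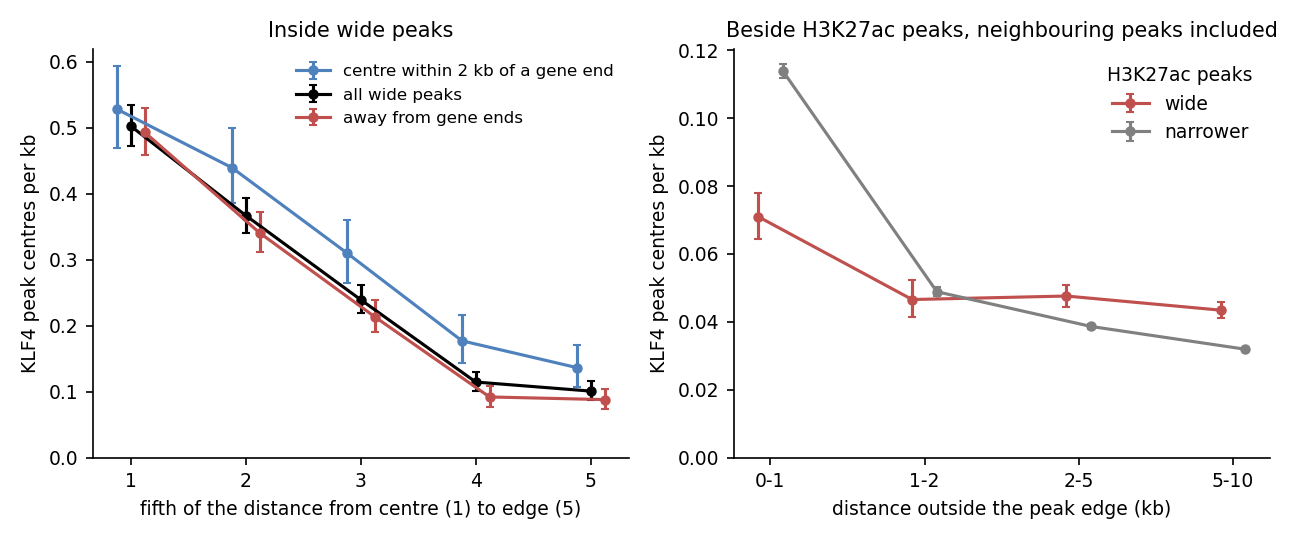
KLF4 peak centres per kb (y axes) inside wide H3K27ac peaks, by position, from 1 (centre) to 5 (edge) of 5 equal parts (left), and beside wide and narrower peaks, by distance in kb from the edge (right, neighbouring H3K27ac peaks included). Error bars are 95% Poisson intervals. The density falls from 0.502 in the innermost part to 0.101 in the outermost, and to 0.0710 in the first kb outside wide peaks.

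Wide peaks seldom stood alone. The nearest other H3K27ac peak was a median of 112 bp away, against 217 bp for narrower peaks, and was within 1 kb for 79.4% and 70.9%. Within 20 kb there was a median of 7 other peaks around a wide peak and 4 around a narrower one. Another wide peak lay within 20 kb of 1285 wide peaks (41.9%), and a wide peak lay within 20 kb of 15127 narrower peaks (28.9%). With peaks 1 kb or less apart merged, 6017 regions were 2000 bp or wider in place of 3069, so membership depends on how the peak calls were split.

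Almost all wide peaks lay in ESC bins with an H3K27ac value. The ESC lists hold 10 kb bins, each with an H3K27ac value on a scale that the sources do not state and with a whole number of unstated meaning, called the bin score here. The value was taken as H3K27ac from the names of the lists and from its match with iPSC peaks. Its match with iPSC H3K27ac peaks is therefore not an independent result. The centre of a wide peak lay in a bin with a value in 2973 cases at 0 h (96.9%, 96.2 to 97.5) and in 2951 at 24 h (96.2%, 95.4 to 96.8). For narrower peaks these shares were 80.3% and 77.2%. A bin that holds a wide peak also holds more acetylated bases and more other peaks, and 999 wide peaks reached into more than 1 bin. At both times 2943 wide peaks had a value, 30 had one at 0 h only, 8 at 24 h only and 88 lay in bins absent from both lists. Of those 88, 26 were on chromosome 4, 10 on chromosome 17 and 3 on chromosome Y, which neither ESC list holds. The widest unlisted peaks were nearest Mid1 (8024 bp, chromosome X), the zinc-finger genes Zfp987 and Zfp988 (5524 and 5208 bp, chromosome 4), Gm52481 (5251 bp, chromosome Y) and Gm21119 (4770 bp, chromosome 8), and absence from a list does not show a lack of acetylation.

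Bins with a wide peak also had the higher values, an order that is not independent of how the value was identified. At 0 h the median was 8.20 (quartiles 6.72 and 9.96; 2753 bins) with a wide peak, 4.84 with narrower peaks only and 3.53 with none. At 24 h the medians were 6.49 (5.32 and 7.89; 2731 bins), 4.18 and 3.30. The median bin score was 9 and 8 with a wide peak at 0 h and 24 h, 4 and 4 with narrower peaks only, and 2 and 2 with none. With bins cut into 10 equal groups by value, a wide peak lay in 42.9% of the highest and 0.0746% of the lowest group at 0 h, and in 39.9% and 0.703% at 24 h. Over all bins with a value, a wide peak lay in 2753 of 26812 at 0 h and in 2731 of 25611 at 24 h. Taken by peak, the median 0 h value of the bin rose with width from 7.58 at 2000 to 2999 bp to 8.79 at 3000 to 4999 bp and 10.3 at 5000 bp or more. The highest value of any bin with a wide peak, 29.7 at 0 h and 24.2 at 24 h, lay in the gene body of Esrrb, at a peak of 8516 bp with 2 KLF4 centres (chromosome 12, 86500235 to 86508750).

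**Figure D3:**
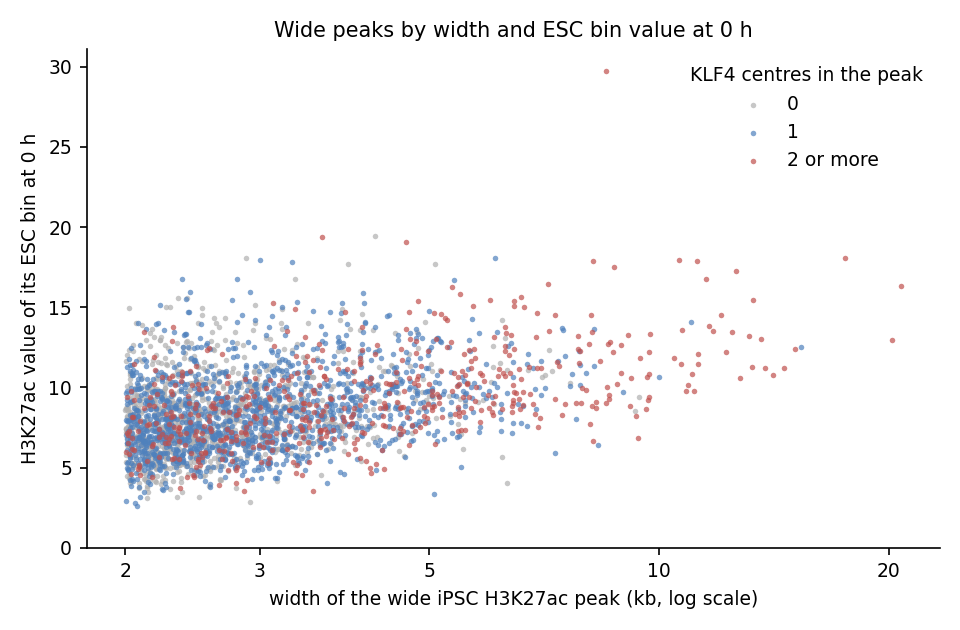
Width of each wide iPSC H3K27ac peak in kb (x axis, log scale) against the 0 h H3K27ac value of the ESC bin that holds its centre, in the authors' units (y axis). Points are the 2973 wide peaks with a 0 h value, with 1082 holding no KLF4 centre, 1351 holding 1 and 540 holding 2 or more. Most peaks of 10 kb or more have a red point, and the highest point (29.7) is in Esrrb.

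The comparison of 24 h with 0 h asked how H3K27ac in these bins stood after induction of the knockout. Since the scaling between the lists is unknown, the log2 ratio of 24 h over 0 h was set against its median over all 22739 bins valued at both times, which was -0.23 (a ratio of 0.854). The median relative log2 value of bins with a wide peak was -0.08 (-0.09 to -0.07; quartiles -0.27 and 0.06; 2723 bins). It was 0.00 in the 14452 bins with narrower peaks only and 0.07 in the 5564 with none. Neighbouring bins often share 1 value, so the interval for wide-peak bins is too narrow. With 1 bin per run of equal values their median was -0.062 (-0.080 to -0.051, 1751 bins). The quartile ranges of the 3 kinds of bin overlap widely. In a bulk sample, fewer cells with the mark and less of it per cell cannot be told apart.

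Relative values that differed by 1.5-fold or more were nearly all downward in bins with a wide peak. They were lower at 24 h in 198 bins (7.27%, against 5.63% of all bins valued at both times) and higher in 18 (0.661%, against 4.94%). Of the wide-peak bins valued at 0 h, 30 (1.09%) had no value at 24 h, against 15.2% of all bins valued at 0 h. Of those valued at 24 h, 8 (0.293%) had none at 0 h, against 11.2% of all bins valued at 24 h. Wide-peak bins also had the higher level (a median 0 h value of 8.20, against 4.65 over all bins valued at 0 h), and its part in these shares was not tested.

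The relative value moved with KLF4 as mapped in iPSCs, since the samples include no KLF4 ChIP-seq of the ESCs. In the 1990 wide-peak bins that held a KLF4 centre the median was -0.12 (quartiles -0.32 and 0.02), with 71.6% of bins below 0, and in the 733 without one it was 0.01 (-0.14 and 0.16), with 47.9% below 0. Bins with narrower peaks only differed in the same direction, at -0.07 with and 0.05 without KLF4. The level of the bins moved with KLF4 as well, with median 0 h values of 8.47 and 7.58 in wide-peak bins, and its part in the result was not tested. Among the bins in the upper 2 of 10 equal groups of mean level, the wide-peak median was -0.08, at -0.11 with KLF4 and 0.01 without, and that of bins with narrower peaks only was -0.04. Away from gene ends the wide-peak median was -0.12, and near them -0.06. The 24 h share of the bin score, summed over both times, was 46.7% (46.3 to 47.1) with a wide peak, 46.9% (46.7 to 47.2) with narrower peaks only and 48.4% (48.1 to 48.6) with no peak. Both kinds with a peak lay below bins with none. The intervals take each unit of a score of unstated meaning as an independent count, so their overlap does not rank the kinds of bin. With a KLF4 centre the shares of bins with wide and with narrower peaks were 46.1% and 45.6%, and without one 48.6% and 47.9%, so that the order turned within both.

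**Figure D4:**
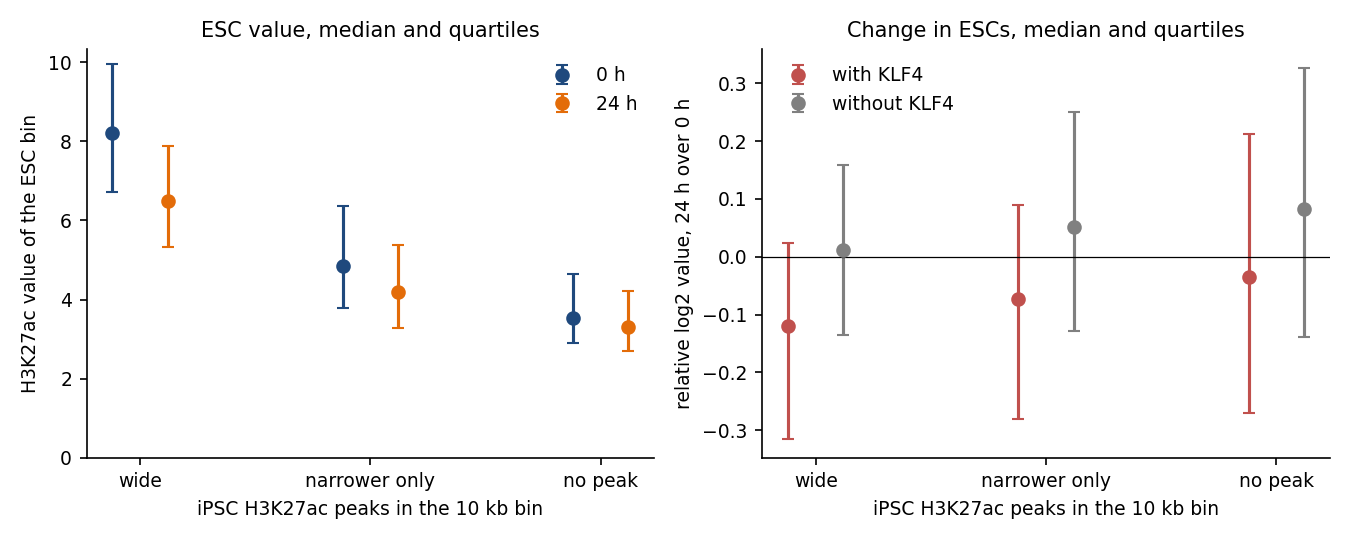
H3K27ac value of ESC bins in the authors' units at 0 h and 24 h (left), and relative log2 value of 24 h over 0 h in bins with and without a KLF4 centre (right), by the iPSC H3K27ac peaks in the bin. Points are medians and bars run from the lower to the upper quartile. KLF4 centres are those of iPSC KLF4 peaks. Wide-peak bins have medians of 8.20 and 6.49, and relative medians of -0.12 with KLF4 and 0.01 without.

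By name, the widest peak of all spanned 20764 bp on chromosome 9 (78358317 to 78379080) over Dppa5a and Ooep, neighbouring genes for RNA-binding proteins of pluripotent cells and the oocyte. It held 3 KLF4 centres, and its bin had a value of 16.3 at 0 h and 12.1 at 24 h (relative log2 -0.21). The next, of 20186 bp, lay over Ubxn2a and Atad2b on chromosome 12 with 2 centres and values of 13.0 and 8.79 (-0.33). Peaks of 15358 bp in Myo10 (an unconventional myosin; 1 centre) and of 15102 bp in Tmem51 (4 centres) followed the peak beside the miR-290 cluster. The long noncoding RNA gene Malat1 lay in a peak of 14570 bp on chromosome 19 with 4 centres and values of 11.2 and 9.18 (-0.06).

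The rest of the 20 widest peaks included 1 at each of 2 genes of the naive pluripotency list, Tfcp2l1 and Klf4. Tfcp2l1, a naive-state transcription factor, had a peak of 13756 bp in its body with 4 KLF4 centres and values of 11.2 and 8.19 (-0.23). Klf4 had a peak of 12610 bp centred 51042 bp from the nearest end of the gene, with 3 centres and values of 17.3 and 12.1 (-0.28), besides the 3599 bp peak over its start. Slc2a3, which encodes the glucose transporter GLUT3, had 13131 bp with 5 centres and values of 13.2 and 9.16 (-0.30). Klf9 was the gene nearest to a peak of 11535 bp, 51942 bp away (2 centres, -0.16). Mapt, which encodes tau, had 12782 bp with 3 centres and the lowest relative value of the 20, -0.62 (10.6 and 5.90). Mcl1, an anti-apoptotic BCL2 family gene, had 12473 bp over its start (2 centres, -0.02), and Usp48, a deubiquitinase gene, 12248 bp with 5 centres (-0.38). Of the 20, Myo10 alone had a value above 0 (0.06).

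Peaks with the most KLF4 were not always the widest. After the peak beside the miR-290 cluster with 6, the count of 5 was reached at Slc2a3, Usp48, Zbtb44 (6925 bp), the Polycomb gene Phc1 (6600 bp), Tagln2 (3524 bp) and Ywhaz (3478 bp). Tagln2, an actin-binding protein gene, had a low bin value of 3.54 at 0 h and 1.97 at 24 h (-0.62), and Ywhaz, a 14-3-3 protein gene, 5.38 and 5.34 (0.22). At the other end, the widest peaks with no KLF4 centre were in or nearest Mtf2 (9412 bp), a Polycomb accessory gene, Tns3 (9310 bp), Kat6b (7643 bp), Mdm4 (7239 bp) and Zfp638 (7172 bp). Their relative values were -0.06, 0.31, -0.05, 0.05 and 0.14.

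Assigned to the nearest gene end within 100 kb, 2923 wide peaks fell to 2097 genes, and 1580 of these genes had 1 wide peak. Tbx3, a T-box factor of the naive state, had the most, with 10 wide peaks of 32024 bp in sum and 9 KLF4 centres. Bin values there ran from 5.31 to 11.2 at 0 h and from 4.26 to 7.56 at 24 h, with a median relative value of -0.22. Esrrb, which encodes an orphan nuclear receptor, had 9 wide peaks of 42525 bp with 8 centres, at 9.94 to 29.7 and 8.30 to 24.2 (-0.10). Of the 10 Tbx3 peaks 5 lay in bins that share 1 value (9.23 and 6.78), and of the 9 Esrrb peaks 7 did (10.9 and 8.71), so their values are not independent. Macf1 had 8 wide peaks (32176 bp, 5 centres, -0.12), and Reep3 had 7 (26074 bp, 0.00). Among the 9 genes with 6 were Cd9, a tetraspanin (9 centres, -0.26), Bicral (-0.15), Tet1, a methylcytosine dioxygenase (6 centres, -0.04), Gcnt2 (-0.26) and Arid5b (-0.12).

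Of 21887 protein-coding genes, 1257 (5.74%) had an end within 2 kb of a wide peak, and 2547 (11.6%) were touched by one within the gene or 10 kb on each side. The widths, KLF4 centres and values given below for list genes are those of the widest peak that touched the gene, which need not be the peak at its end. Among 24 naive pluripotency genes 15 had a wide peak at an end (62.5%) and 17 were touched. Those 17 included Nanog (8557 bp, 2 KLF4 centres), Fgf4 (8642 bp, 3 centres), Klf2 (9155 bp, 3 centres), Gdf3 (4866 bp, 1 centre), Klf5 (2504 bp, 2 centres) and Esrrb. KLF4 centres lay in the wide peaks of 14 of the 17, and Socs3, Dppa2 and Il6st were the exceptions. Over all lists, 87 of the 113 genes touched had such a centre. The bin of the widest peak was below 0 in relative value for 15 of the 17 (median -0.18, from -0.48 at Tet2 to 0.27 at Socs3). Taken the same way over all lists, 81 of the 113 genes touched were below 0 (median -0.06). Of all wide-peak bins, not chosen by the widest peak of a gene, 65.2% were below 0. Nanog had values of 10.0 and 7.87 (-0.12), Fgf4 12.8 and 9.16 (-0.26) and Klf5 5.17 and 5.29 (0.26). Dppa3, Prdm14, Nr5a2, Stat3, Tcl1, Nr0b1 and Dppa4 were not touched. Beyond that distance, Prdm14 was the nearest gene to wide peaks of 2764 bp and 2420 bp, and Dppa3 to one of 2125 bp.

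The shared pluripotency genes had a wide peak at an end in 9 of 20 cases (45.0%). Sox2 had 6221 bp without a KLF4 centre and values of 14.2 and 11.6 (-0.06). Pou5f1 had 2 wide peaks of 3306 and 2621 bp, with 3 centres in all and values of 8.73 and 6.45 (-0.21). Sall4, a zinc-finger factor, had 4277 bp, no centre and values of 12.3 and 11.4 (0.12), the only relative value above 0 of the 11 touched genes of this list. Cdh1, which encodes E-cadherin, had 3 wide peaks, 20334 bp in sum, within 10 kb of the gene and none at an end. Primed or formative genes had a wide peak at an end in 2 of 13 cases, Nodal (5646 bp, -0.13) and Otx2 (3749 bp, -0.39), and Foxd3 was touched (2833 bp, -0.67, 10.3 and 5.53).

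The KLF and SP family, without Klf2, Klf4 and Klf5, which stand in the naive list, had a wide peak at an end in 7 of 23 cases. Klf9 had 4 wide peaks with 7 KLF4 centres in or within 10 kb of the gene, the widest at 6600 bp with values of 15.7 and 12.7 (-0.07). Klf3 (4211 bp, 2 centres) stood at 7.81 and 4.60 (-0.54), Klf10 (2821 bp, 3 centres) at 8.61 and 6.05 (-0.28) and Klf13 (4221 bp, no centre) at 6.86 and 6.92 (0.24). The wide peaks at the ends of Klf3 and Klf13 were others, of 2915 bp with 2 centres and of 2243 bp with 1, and the bin of the latter had a relative value of -0.20. Sp1, Sp2 and Sp3 had relative values from 0.04 to 0.13. Klf8 on chromosome X was touched by a peak of 2550 bp at 12.6 and 6.08 (-0.83), the lowest relative value among the 113 list genes touched.

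Genes that all cells use also carried wide peaks. Splicing factors had one at an end in 12 of 18 cases (66.7%), among them Hnrnpu (6635 bp), Ptbp1 (4162 bp), Hnrnpa2b1 (3977 bp) and Srsf1 (3810 bp). Cytosolic ribosomal protein genes had one in 14 of 28 cases (50.0%), among them Rpl13a (7647 bp), Rpl23 (3811 bp) and Rpl4 (3767 bp), and glycolysis genes in 7 of 16, with Gapdh (4675 bp) and Eno1 (3954 bp). KLF4 centres lay in the wide peaks of 7 of the 15 ribosomal genes touched, 11 of 13 splicing genes and 9 of 13 glycolysis genes. Over all lists this held for 87 of the 113 genes touched. Their median relative values were -0.07, -0.03 and -0.06. Nearly all members of these lists had some H3K27ac peak at an end (28 of 28, 18 of 18 and 15 of 16), against 43.7% of all genes.

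Regulators of chromatin were divided. Polycomb and DNA methylation genes had a wide peak at an end in 7 of 20 cases, with Tet1 (2205 bp at the end, and 7365 bp beyond it), Suz12 (3425 bp), Eed (2948 bp) and Ezh2 (2412 bp), and architecture and coactivator genes in 3 of 21, Rad21 (2787 bp), Ep300 (2687 bp) and Ctcf (2389 bp). Of canonical histone genes 4 of 17 had one, but H1f1, H3c1 and H4c1 share 1 peak and H1f2 lies in another of 10917 bp in the same cluster. Stress and immediate early genes had one in 7 of 20 cases. Fos (2864 bp, 4 KLF4 centres) stood at 3.56 and 4.43 and had the highest relative value of the list genes touched (0.54), while Mcl1 and Hspa8 (4701 bp, -0.14) stood below 0.

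Markers of other cell types were mostly without wide peaks, but so were protein-coding genes in general. Of all of them 5.74% had one at an end and 11.6% were touched. None of 12 trophectoderm, 10 mesendoderm or 12 neuroectoderm genes had one at an end, 1 of 12 primitive endoderm genes did (Sparc, 2668 bp, -0.39), and Tead4 of the trophectoderm list was touched (5502 bp, -0.25). Of 15 fibroblast markers, which feeder cells would express, Fn1 had one (8605 bp, 3 KLF4 centres, 9.53 and 6.12, -0.41) and Loxl1 was touched (11245 bp, 3 centres, 12.1 and 10.7, 0.04). The collagen genes Col1a1, Col1a2 and Col3a1 were not touched. At the shares over all genes, lists this short would hold few such genes, so these counts do not set them apart.

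**Figure D5:**
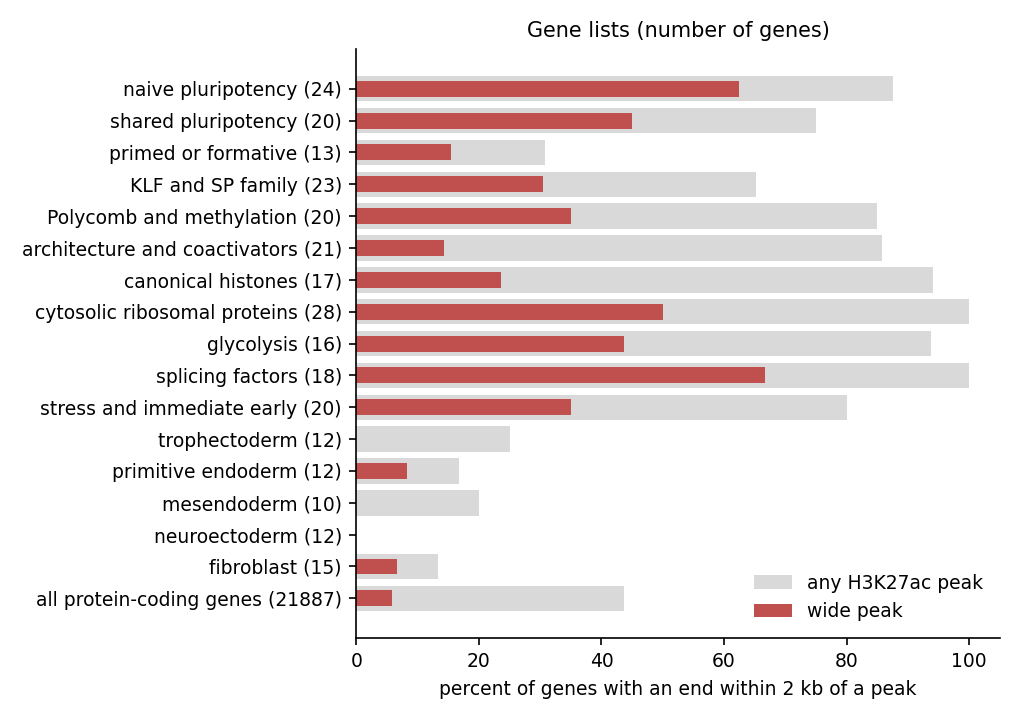
Percent of the protein-coding genes of each list (x axis, number of genes in brackets) with an end within 2 kb of a wide iPSC H3K27ac peak (red) or of any iPSC H3K27ac peak (grey). Splicing, naive pluripotency and ribosomal genes have the longest red bars (66.7%, 62.5% and 50.0%), against 5.74% of all genes.

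The largest differences between the times were at single bins. The lowest relative value, -1.55, belonged to a bin on chromosome 16 with 2 wide peaks (9349305 to 9351532 and 9351795 to 9355588), no KLF4 centre in either peak and no protein-coding gene end within 100 kb, with a value of 11.5 at 0 h and 3.37 at 24 h and a bin score of 16 and 1. Of the other 4 lowest, 2 were also far from any gene end, and 2 were nearest Msln, which encodes mesothelin (10.6 and 3.75, -1.28), and Eps8 (8.87 and 3.17, -1.26). The peak nearest Msln and a far one on chromosome 15 held 1 KLF4 centre each. The peak nearest Eps8 and the other far one, on chromosome 6, held none. Among the highest relative values were those in Dtx2 (5.07 and 7.85, 0.86), Chst11 (5.10 and 7.73, 0.83), Tert, which encodes the catalytic subunit of telomerase (6.07 and 8.95, 0.79), Efs (0.78) and Acss1 (0.78). Of these 5 peaks only the one in Dtx2 held a KLF4 centre. The highest bin score was 44 at 0 h and 35 at 24 h, nearest Hes1, a Notch target, followed by 39 and 29 nearest Eif2b5, 38 and 35 nearest Bscl2, 37 and 22 nearest Tcf7l2, 36 and 33 nearest Rab12 and 34 and 38 nearest Xpnpep1. These rankings pick extremes from 1 list per time and have no replicate check.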

How the data were processed

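The deposited lists for 12 ChIP-seq samples in 7 groups were iPSC H3K27ac peaks, iPSC KLF4 peaks, and ESC bins of 10 kb at 0 h and 24 h. The submitters' processing notes name mm10 and the tools MACS2, Bowtie2, bedtools and SAMtools, with neither versions nor roles. The way replicates were combined and the threshold of the peak calls are not given in the sources used here. The deposited iPSC lists hold positions alone. The ESC lists have 10 columns and no header. The last column was read as the authors' H3K27ac signal, from the names of the lists and from its match with iPSC peaks. Its normalization is unknown, and the smallest number a computer can store stands for no signal. The deposited whole number in column 4 is a score of unstated meaning. Whether the lists of both times were scaled to each other is not stated, so log2 ratios were centred on their median over bins with a value in both lists. Neighbouring bins often share 1 value.

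A KLF4 peak was counted inside an H3K27ac peak by its centre, and a peak was placed in a bin by its centre. Gene ends, promoter windows and microRNAs came from RefSeq for GRCm38.p6, the primary assembly of mm10. Peaks near a gene end lie within 2 kb of an end of 1 of 21887 protein-coding genes, and a peak was named by the nearest end within 100 kb of its centre. Intervals were computed in Python 3.11.15 with SciPy 1.17.1, NumPy 2.4.6 and pandas 2.3.3, at 95%. Counts, densities and medians were checked on simulated data.

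The members, the 16 gene lists (279 distinct genes, all found by symbol or synonym) and the rules for named genes were chosen with earlier results of these data known. Named are the 20 widest peaks, the 10 genes with most wide peaks, the 10 peaks with most KLF4 centres, the 6 lowest and 6 highest relative values, the 6 highest bin scores, the 5 widest peaks without a 0 h value and the 5 without KLF4, 3 peaks on each side of the width rule, and up to 4 genes per list by width. Further list members are named where they complete a count, stand at an extreme or are the study's targets and core factors, and were chosen after their values were seen. Some items that these rules name are left out, and promoters on chromosome 18 were not considered for printing. The touch within 10 kb of a gene was added as an alternative after the data had been seen.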

Additional observations from a re-analysis of the deposited data

Results flagged for a closer look

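The ESC lists carry 5 further columns of marks between the bin score and the H3K27ac value, with no header to say what they mark, and the report does not use them. Each was set more often in 0 h bins with a wide peak than in bins with no iPSC H3K27ac peak. The shares were 7.92% against 2.01% in column 5, 9.12% against 0.134% in column 6, 35.1% against 6.22% in column 7, 4.47% against 3.46% in column 8 and 8.14% against 0.0335% in column 9. Bins with narrower peaks only lay between, at 3.71%, 1.04%, 16.7%, 3.52% and 0.409%. The counting intervals of wide-peak bins and bins without a peak do not overlap in any of the 5 columns, though in column 8 they nearly meet (3.73 to 5.31 and 3.25 to 3.67).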

How the results depend on the processing

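Of 103 alternative values, 97 kept the order of wide and narrower peaks or bins, and the other 6 are named with their results in the report (share at gene ends, KLF4 per kb and 24 h share of the bin score, under 2 alternatives each). The 97 include 7 for the number of genes, whose order follows from the greater number of narrower peaks. They also include 7 for the share of peaks with KLF4, which the length of a peak favours. With respect to the reported value, 42 stayed within its interval (or within 1.5-fold for counts), 60 moved and 1 changed sign. Leaving out the sex chromosomes moved no value beyond its interval. No paired analysis was possible because each group of the 2 lettered replicates was deposited as 1 list.

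Width rules of 1500 and 3000 bp in place of 2000 bp gave shares at gene ends of 31.6% and 23.6%, with KLF4 of 53.8% and 77.2%, in valued bins of 94.9% and 97.7% at 0 h and 93.6% and 97.6% at 24 h, median values of 7.51 and 9.15 at 0 h and 6.12 and 7.20 at 24 h, bin scores of 8 and 11 at 0 h and 7 and 9 at 24 h, relative log2 medians of -0.059 and -0.113, and 2199 and 489 genes. Merging peaks 1 kb or less apart gave 0.213 KLF4 centres per kb, 94.2% and 92.4% in valued bins, medians of 7.02 and 5.68, scores of 8 and 7, a relative log2 median of -0.056 and 2738 genes.

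Gene-end distances of 1 kb and 5 kb gave 20.3% and 40.2%, and any part of the peak 34.6%. Overlap by 1 bp gave 68.5% with KLF4 and 0.288 per kb. Near gene ends the values were 66.2% with KLF4, 0.318 per kb, 97.8% and 97.6% in valued bins, 7.94 at 0 h and -0.058. Away from gene ends they were 0.246 per kb, 96.1% and 94.9%, 8.46 and -0.115. Any bin touched gave a score of 8 at 0 h, and 1 bin per run of equal values 7.73, 6.27 and -0.062. Bins without KLF4 gave 97.6% and 97.1%, 7.58 at 0 h, scores of 8 and 7, a relative median of 0.012, which changed sign, and 48.6% of the score. Bins with KLF4 gave 8.47, a score of 10, -0.12 and 46.1%. A wide peak within 10 kb of the gene gave 2547 genes.

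Depth is unknown, so a low value cannot be told from low coverage, and a peak's width depends on calling that the sources do not describe. The cause of the moved values was not tested.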
